A study of Bos taurus with 9 samples.

Results

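The mitotic spindle and G2/M genes are 52 genes whose products act between the end of DNA replication and the division of the cell. They were listed by name as a module of this phase, with no threshold on a measured value. The list was nevertheless chosen with earlier results of these data known, so that counts and medians over it are descriptions. All 52 were found by their symbols among the 20679 genes of the deposited tables. They were sorted here by the best known role of their product into 9 functional groups. The 9 groups cover CDK1 with a cyclin and regulators, the kinetochore, the chromosomal passenger complex, kinesins, and other spindle proteins. They also cover ubiquitin ligase and mitotic exit genes, chromatin, cytokinesis and the nuclear envelope.

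RNA was sequenced on day 5 of 3D culture from bovine uterine gland fragments, the exocrine epithelium of the endometrium, freed by collagenase from cattle uteri collected at an abattoir. The CYST group was cultured in Matrigel without EGF and formed spherical cysts, the MAT group in Matrigel with EGF formed elongated tubular structures named UG-LIKE, and the MAT + COL group received EGF in Matrigel supplemented with type I collagen, with 3 libraries per group. The EGF dose of 5 ng/ml and the collagen I concentration of 0.5 mg/ml come from the methods of the study, since the labels name no dose, and no untreated fresh gland was analysed here. The basal medium of all 3 groups held insulin, transferrin, selenite, ascorbic acid and serum albumin, so that EGF and collagen I are the only agents that differ by label. Strain and age of the cattle are not given in the labels, the labels call the cells epithelial and name no transgene, and how many animals contributed to a library is not given in the sources used here. The labels do not say that the replicates came from separate animals, so that p-values measure only the spread between these libraries.

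A dividing cell copies its DNA in S phase, and in G2 it builds up cyclin B, which activates the kinase CDK1 and starts mitosis. The spindle of microtubules, moved by kinesins, then captures each chromosome at its kinetochore, and the checkpoint kinases hold the cell until all chromosomes are attached. CDC20 then switches on the anaphase-promoting complex, a ubiquitin ligase that marks cyclin B and securin for destruction. Many of these genes are transcribed together in G2 and M under the DREAM and MuvB complexes with B-MYB and FOXM1, and their summed RNA is widely used as a measure of how many cells of a tissue are cycling. The gland epithelium of the endometrium proliferates chiefly under estrogen and less under progesterone. RNA of a whole culture cannot tell fewer cells in G2 and M apart from less of these RNAs per cell, and that holds for every result that follows.

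Total counts ranged from 6568968 to 17948600 reads per library, and the shallowest was MAT replicate 1. All 52 genes passed the filter on low counts in each of the 3 comparisons, and the lowest count of any of them in any library was 16. Libraries carrying the same replicate number deviated together from their group means, and those numbered 1 stood apart for these genes. MAT replicate 1 was the lowest of the 9 libraries for 25 of the 52 genes and MAT + COL replicate 1 for 24, while CYST replicate 2 was the highest for 32 and CYST replicate 1 for 17. CYST replicate 3 was the lowest of its own group for 49 genes. Counts of calls are therefore given also with the replicate number as a block, and without single libraries or pairs of them where that moved it.

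The gland epithelial markers EPCAM, CDH1, KRT8, KRT18, KRT19 and FOXA2 were detected in all 9 libraries, with FOXA2, a transcription factor of uterine glands, at only 1.31 to 12.4 TPM, a level scaled for gene length and sequencing depth. Their summed TPM was 16649 to 18423 in CYST, 27613 to 43306 in MAT and 28181 to 38520 in MAT + COL, so that the sum lay above CYST in both groups with EGF. That sum rests mostly on KRT8 and KRT19. KRT18 overlapped between the groups, at 698, 458 and 292 TPM in CYST replicates 1 to 3, 479, 321 and 833 in MAT and 293, 276 and 865 in MAT + COL. FOXA2 overlapped as well, and CDH1 did between MAT + COL and CYST. The 6 stromal markers DCN, LUM, COL1A1, COL3A1, PDGFRA and PDGFRB summed to 1640 to 3901 TPM in CYST, 603 to 2417 in MAT and 1514 to 2871 in MAT + COL. These ranges overlapped, with the highest value of each group in replicate 3. Within each replicate number, however, the stromal sum was lower in both groups with EGF than in CYST. Single markers did not all follow, as COL1A1 was higher with EGF among the libraries numbered 1. Endothelial markers summed to at most 26.1 TPM, leukocyte markers to at most 48.3 and smooth muscle markers to at most 19.4, and CD3E, which defines T cells, was at 0 in 6 libraries and at most 0.568 TPM. None of the markers tested passed at an adjusted p under 0.05 in MAT against CYST, and with the replicate number as a block EPCAM, KRT8 and KRT19 were called higher and DCN lower. Their part in the results for the mitotic genes was not tested.

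In MAT against CYST, every one of the 52 genes had a negative Log2FC, the log2 fold change estimated by edgeR with positive values meaning higher in the first-named group. The median was -1.05 and the range -1.71 to -0.34, whereas the median over the 12074 genes tested was 0.01 and 49.2% of them were negative. Only 3 of the 52 passed the test at an adjusted p under 0.05, namely AURKB, TACC3 and FBXO5, all lower with EGF, where 0.944% of all genes tested were called lower. The same 3 met the criteria for DEGs (adjusted p under 0.05, Log2FC above 1 or below -1, and TPM above 1 in each library of the comparison), against 0.729% of all genes. These thresholds are those of the study, with its TPM criterion read here as holding in each library. With its own software, the study reported more DEGs at them, and cell cycle and DNA replication were among its downregulated pathways. At an unadjusted p under 0.05, 35 of the 52 were lower, against 11.3%, and for 27 every MAT library had a lower TPM than every CYST library, against 11.8%. With the replicate number as a block, 24 of the 52 were called lower, against 5.67%, and 21 were DEGs, against 3.08%. The summed TPM of the 52 genes made up 0.423%, 0.454% and 0.298% of all TPM in CYST replicates 1 to 3, 0.140%, 0.259% and 0.211% in MAT, and 0.128%, 0.254% and 0.266% in MAT + COL, so that each library with EGF lay below each CYST library. By functional group, the lowest median Log2FC were -1.33 for the ubiquitin ligase and mitotic exit genes and -1.29 for the passenger complex. Nearest to 0 were -0.84 for the cyclin and CDK1 genes and -0.64 for the nuclear envelope genes. The value of -1.33 does not stand for ligases in general, since 13 genes of the anaphase-promoting complex and related ligases outside the module had a median of -0.20. The count of calls rested on single libraries. It was 0 without CYST replicate 1, CYST replicate 2, MAT replicate 1 or MAT replicate 3, it was 1 without MAT replicate 2 and 2 without CYST replicate 3, and in the blocked test it was 0 without both libraries numbered 1, 24 without those numbered 2 and 36 without those numbered 3. The share of all genes called lower moved as well, from 0.0321% to 0.947% without 1 library, and in the blocked test it was 0.112%, 2.69% and 7.69% without the libraries numbered 1, 2 and 3.

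**Figure D1:**
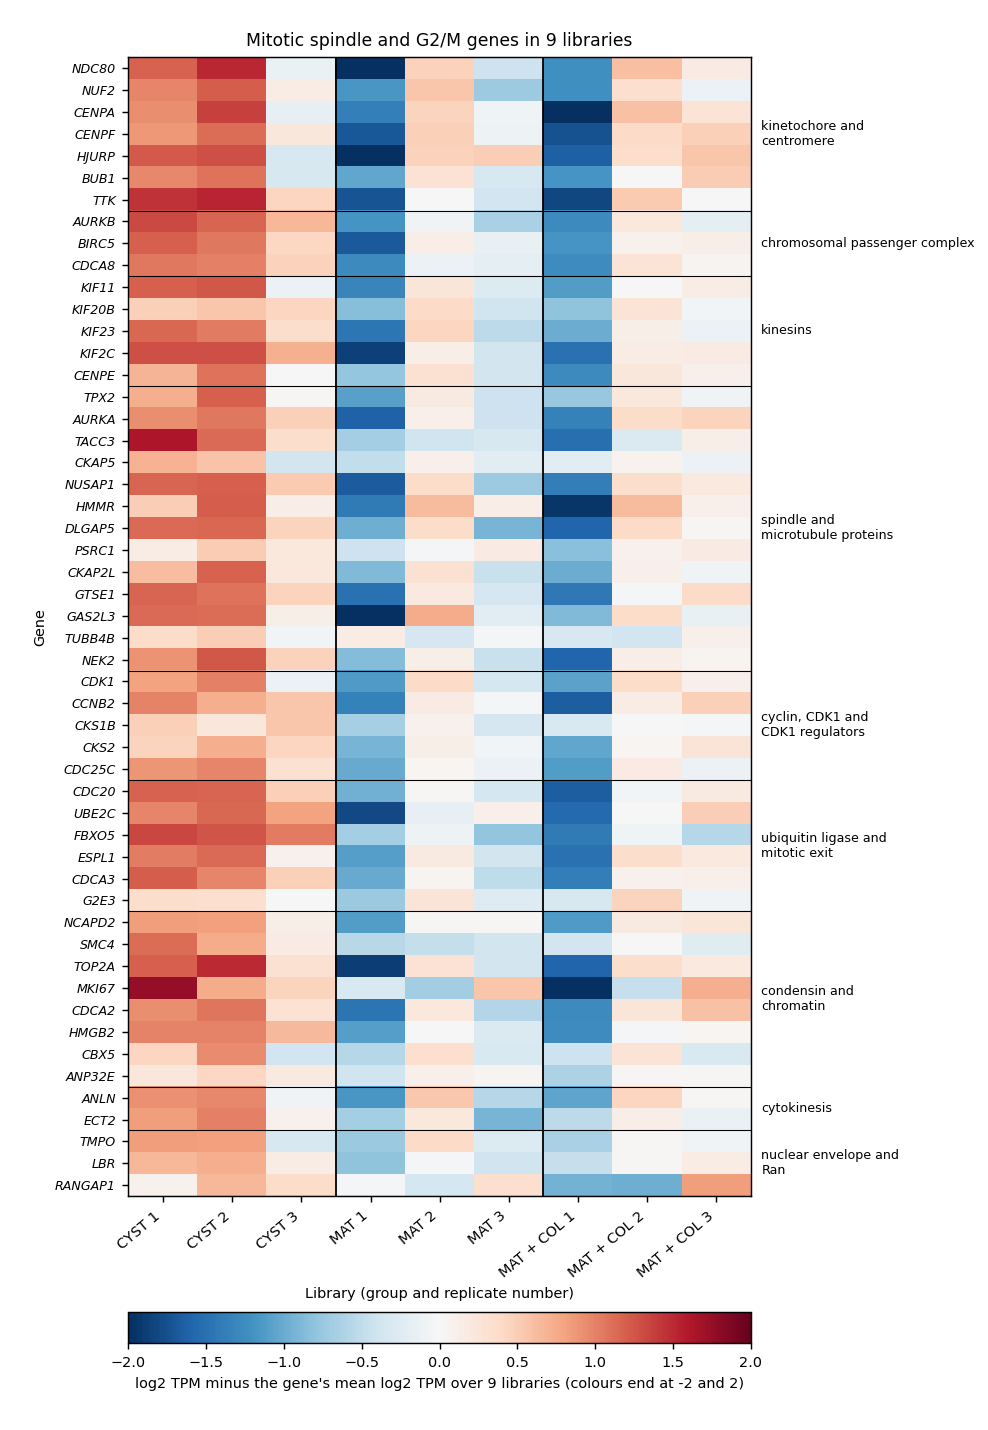
Level of each of the 52 genes (rows, in functional groups) in each of the 9 libraries (columns), as log2 TPM minus the mean of that gene over the 9 libraries, with colours ending at -2 and 2. The columns of CYST replicates 1 and 2 are mostly red and those of MAT and MAT + COL replicate 1 mostly blue, MAT replicate 1 being the lowest library for 25 genes and MAT + COL replicate 1 for 24.

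Among the genes that set off mitosis, CDK1 is the mitotic kinase, CCNB2 one of its cyclin B partners, CDC25C the phosphatase that activates it, and CKS1B and CKS2 small subunits that bind it. None of these 5 passed the test in MAT against CYST, and CKS2 alone passed with the block, although the Log2FC was negative for all 5, with a median of -0.84. By mean TPM over the 9 libraries, though not within MAT, where TUBB4B was higher, CKS2 was the most abundant of the 52 genes. CKS2 was at 517, 626 and 512 TPM in CYST replicates 1 to 3, 198, 412 and 367 in MAT and 186, 391 and 452 in MAT + COL. Each MAT and each MAT + COL library was below each CYST library, and the library numbered 1 was the lowest of both groups with EGF. The Log2FC of CKS2 in MAT against CYST was -0.76 ± 0.28 (SE, n = 3 per group; adjusted p = 0.176), and it was -0.83 ± 0.21 with the block (adjusted p = 0.0439). CCNB2 stood at 42.3, 35.05 and 31.1 TPM in CYST, 8.32, 23.7 and 20.7 in MAT and 6.79, 23.4 and 29.4 in MAT + COL. The groups with EGF did not overlap CYST, but MAT + COL replicate 3 came close to the lowest CYST library, and the Log2FC of -1.03 ± 0.37 did not pass (adjusted p = 0.165). CDC25C, a low gene of the module, was at 13.8, 14.9 and 9.28 TPM in CYST, 3.74, 7.71 and 6.95 in MAT and 3.47, 8.44 and 6.98 in MAT + COL. Its groups did not overlap either, with a Log2FC of -1.02 ± 0.36 (adjusted p = 0.16). CDK1 itself, chosen for display after its values were seen, was at 59.5, 68.5 and 31.6 TPM in CYST and 15.6, 44.7 and 26.8 in MAT, and CYST replicate 3 lay below MAT replicate 2. Its Log2FC was -0.84 ± 0.38 (adjusted p = 0.257). The gene overlaps ANK3 on the opposite strand over 708 bases, and the strand setting of the counting is not given in the sources used here.

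The kinetochore group holds NDC80 and NUF2, the arms that grip microtubules, CENPA, the histone that marks the centromere, its loading factor HJURP, the outer kinetochore protein CENPF, and the checkpoint kinases BUB1 and TTK. All 7 had a negative Log2FC, between -1.70 and -0.84, and none passed the test without the block, whereas TTK and NUF2 passed with it. TTK, also known as MPS1, showed the lowest Log2FC of the group, with 29.8, 31.6 and 14.8 TPM in CYST, 3.30, 10.99 and 8.44 in MAT and 3.12, 15.7 and 11.1 in MAT + COL. Every MAT library was below every CYST library, and MAT + COL replicate 2 was above CYST replicate 3. The Log2FC was -1.70 ± 0.44 (adjusted p = 0.0843) and -1.77 ± 0.40 with the block (adjusted p = 0.0345). NUF2 was at 59.7, 70.02 and 33.7 TPM in CYST, 13.5, 44.5 and 18.3 in MAT and 13.01, 38.1 and 27.96 in MAT + COL. The groups overlapped because MAT replicate 2 exceeded CYST replicate 3, and yet each MAT library was below the CYST library of its own number, with differences of -2.11, -0.54 and -1.06 on the log2 CPM scale (counts scaled to library size after TMM, for replicates 1 to 3 in that order here and in later sentences). The Log2FC of NUF2 was -1.07 ± 0.43 (adjusted p = 0.214) and -1.21 ± 0.30 with the block (adjusted p = 0.0432). CENPA was the most abundant of the group, at 63.8, 86.6 and 29.9 TPM in CYST, 13.02, 45.7 and 32.05 in MAT and 8.46, 50.6 and 40.8 in MAT + COL. Its differences between same-numbered MAT and CYST libraries were -2.25, -0.81 and -0.08, so that the third pair hardly differed in log2 CPM, MAT being the higher of it in TPM, and CENPA passed neither test (adjusted p = 0.303 and 0.132). HJURP, named after its values were seen, was higher in MAT than in CYST in pair 3 in log2 CPM and in TPM, with log2 CPM differences of -3.54, -0.73 and 0.62.

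The chromosomal passenger complex corrects faulty attachments of chromosomes to the spindle and later marks the site of cell cleavage. It is represented by its kinase AURKB and its subunits BIRC5 (survivin) and CDCA8 (borealin). All 3 genes were lower in every MAT and every MAT + COL library than in every CYST library. AURKB (ENSBTAG00000001717, ARS-UCD2.0 chr19:27833889-27841106, minus strand) was at 81.2, 72.7 and 51.7 TPM in CYST, 14.3, 31.1 and 20.7 in MAT and 13.4, 37.7 and 28.3 in MAT + COL, with means of 68.5 ± 15.2 (SD, n = 3) in CYST and 22.02 ± 8.46 in MAT. The highest MAT library reached 31.1 TPM and the lowest CYST library 51.7 TPM. AURKB fell with EGF, with a Log2FC of -1.62 ± 0.29 (adjusted p = 0.045), and with the block the Log2FC was -1.67 ± 0.27 (adjusted p = 0.0144). BIRC5 was the more abundant of the complex, at 225, 205 and 131 TPM in CYST, 30.6, 108 and 89.1 in MAT and 43.7, 105 and 107 in MAT + COL. The Log2FC of -1.27 ± 0.42 passed neither without the block (adjusted p = 0.14) nor with it (adjusted p = 0.0622). The differences of BIRC5 between same-numbered libraries were -2.84, -0.81 and -0.74, the first being the widest. CDCA8, named after its values were seen and called with the block (adjusted p = 0.0328), had a Log2FC of -1.29 ± 0.32.

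The kinesins are motors that walk on microtubules, and the module holds KIF11, which pushes the spindle poles apart, CENPE, which carries chromosomes to the equator, KIF2C, which takes microtubules apart at their ends, and KIF20B and KIF23, which act in cell cleavage. The Log2FC was negative for all 5, from -1.58 to -0.70, none passed without the block, and KIF2C and CENPE passed with it. KIF2C was at 55.1, 55.2 and 36.7 TPM in CYST, 6.15, 24.6 and 17.5 in MAT and 7.998, 24.97 and 25.2 in MAT + COL. CYST and the groups with EGF did not overlap, and the lowest value was that of MAT replicate 1. Its Log2FC was -1.58 ± 0.44 (adjusted p = 0.0983) and -1.73 ± 0.39 with the block (adjusted p = 0.0335). KIF23 was at 55.8, 51.5 and 31.98 TPM in CYST, 9.19, 33.7 and 17.4 in MAT and 12.6, 27.1 and 23.2 in MAT + COL. MAT replicate 2 was just above CYST replicate 3, and the Log2FC of -1.19 ± 0.42 missed the threshold both without and with the block (adjusted p = 0.167 and 0.0584).

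The largest group comprises 13 spindle and microtubule proteins. Among them, AURKA is the kinase of the spindle poles, TPX2 its activator, TACC3 and CKAP5 bind microtubules together, NEK2 is a kinase that separates the centrosomes, and TUBB4B is a beta-tubulin, a building block of all microtubules. All 13 had a negative Log2FC in MAT against CYST, from -1.55 for TACC3 to -0.34 for TUBB4B, and all 13 were lower in MAT in each of the 3 same-numbered pairs in log2 CPM, whereas in TPM CKAP5 and TUBB4B were higher in MAT replicate 3 than in CYST replicate 3. TACC3 passed the test, and with the block 7 genes passed, TPX2, AURKA, TACC3, NUSAP1, DLGAP5, CKAP2L and NEK2. TACC3 (ENSBTAG00000011044, chr6:116825814-116835029, minus strand) was at 68.5, 48.8 and 28.5 TPM in CYST, 13.9, 16.9 and 18.00 in MAT and 7.85, 18.3 and 24.3 in MAT + COL. CYST ranged widely while the MAT libraries lay close together, with means of 48.6 ± 19.97 TPM (SD, n = 3) and 16.3 ± 2.12 TPM. TACC3 fell with EGF, with a Log2FC of -1.55 ± 0.28 (adjusted p = 0.0462). NEK2 was at 66.4, 84.9 and 49.5 TPM in CYST, 19.5, 38.8 and 26.2 in MAT and 11.9, 39.03 and 37.3 in MAT + COL, again without overlap of CYST with either group. Its Log2FC was -1.23 ± 0.28 (adjusted p = 0.0636), and with the block -1.27 ± 0.21 (adjusted p = 0.014), the smallest blocked adjusted p of the 52 genes. AURKA was at 47.5, 51.6 and 34.5 TPM in CYST, 8.10, 26.6 and 18.7 in MAT and 9.71, 32.02 and 33.6 in MAT + COL. The highest MAT + COL library came just short of the lowest CYST library, both numbered 3, and the Log2FC in MAT against CYST was -1.30 ± 0.39 (adjusted p = 0.117, and 0.0382 with the block). DLGAP5, which stabilises the fibres between kinetochore and pole, was at 38.3, 38.8 and 23.7 TPM in CYST, 8.91, 22.5 and 9.18 in MAT and 5.81, 22.9 and 17.8 in MAT + COL. Its Log2FC was -1.30 ± 0.37 (adjusted p = 0.104, and 0.0235 with the block), and it overlaps the abundant gene LGALS3 on the opposite strand over 505 bases.

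TUBB4B had the Log2FC nearest to 0 of the 52 genes in MAT against CYST. It was at 467, 509.9 and 349.6 TPM in CYST, 399, 288 and 356 in MAT and 290.3, 278 and 389 in MAT + COL, so that the groups overlapped broadly. The Log2FC was -0.34 ± 0.19 (adjusted p = 0.349), and neither test called it. Beta-tubulin genes resemble one another, and whether reads were split among them was not tested. TUBB4B also overlaps CIMIP2A on the opposite strand over 1007 bases. CKS2, HMGB2 and TUBB4B together held 34.6% to 50.8% of the summed TPM of the 52 genes, so that the sum leans on these 3 genes.

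**Figure D2:**
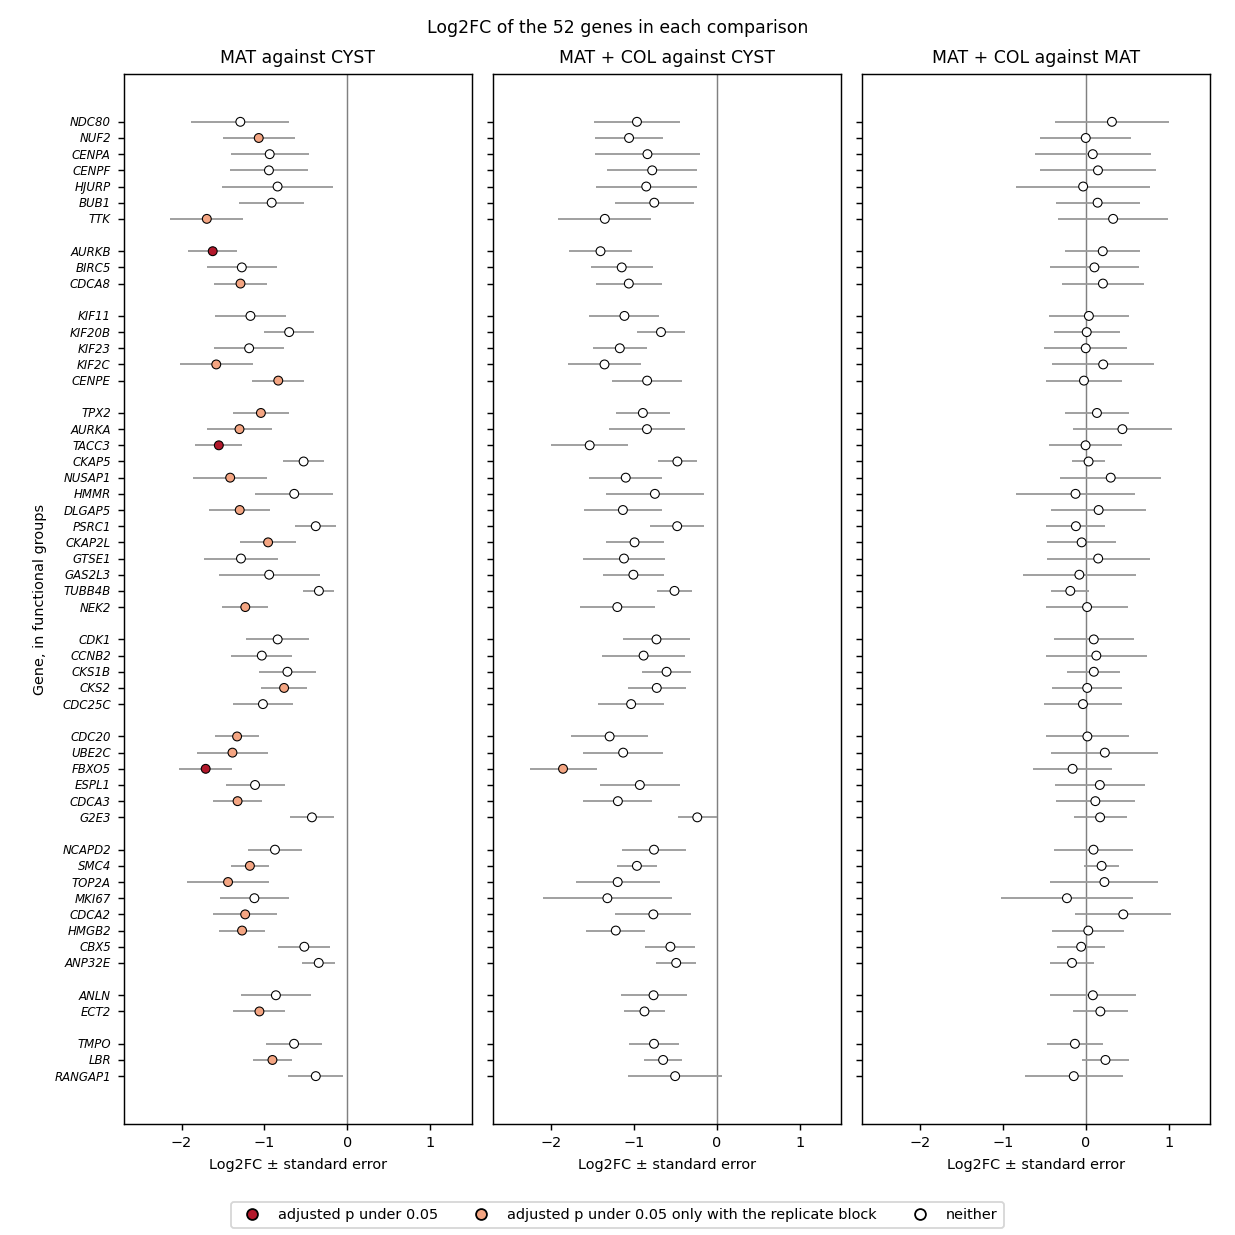
Log2FC of each of the 52 genes (points, with bars of 1 standard error) in the 3 comparisons, with 3 libraries per group. In both comparisons with CYST all 52 points lie below 0, while in MAT + COL against MAT they lie between -0.23 and 0.45, and filled points mark calls without or only with the replicate block.

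The group of ubiquitin ligase and mitotic exit genes controls the way out of mitosis. CDC20 and UBE2C drive the anaphase-promoting complex, FBXO5 (EMI1) inhibits it before mitosis, ESPL1 (separase) cuts the cohesin rings, and CDCA3 and G2E3 belong to ubiquitin ligases. FBXO5 passed the test and had the lowest Log2FC of the module, and CDC20, UBE2C and CDCA3 passed besides it with the block. FBXO5 (ENSBTAG00000021193, chr9:89877735-89889302, minus strand) was at 13.5, 12.8 and 10.97 TPM in CYST, 3.35, 4.98 and 3.09 in MAT and 1.998, 5.04 and 3.60 in MAT + COL. It was the lowest gene of the module by mean TPM, and the spread within CYST was small, with 12.4 ± 1.32 TPM (SD, n = 3) against 3.81 ± 1.02 in MAT. FBXO5 fell with EGF, with a Log2FC of -1.71 ± 0.32 (adjusted p = 0.0462), and the differences of the pairs were -1.95, -1.24 and -1.97. FBXO5 and RANGAP1, the latter named after its values were seen, were the 2 genes of the module for which MAT was below CYST by at least as much in pair 3 as in pair 1 in log2 CPM. CDC20 was at 155, 154 and 96.3 TPM in CYST, 35.6, 69.8 and 53.98 in MAT and 21.9, 66.3 and 78.4 in MAT + COL. The groups with EGF stayed below CYST in every library, and the Log2FC of -1.33 ± 0.27 narrowly missed the threshold (adjusted p = 0.0534), while with the block it was -1.37 ± 0.25 (adjusted p = 0.0194). G2E3, also named after its values were seen, had the Log2FC nearest to 0 of this group, -0.43 ± 0.26 (adjusted p = 0.402), and in pair 2 it was level between MAT and CYST, with a log2 CPM difference of 0.03, and slightly lower in MAT in TPM.

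The condensin and chromatin group includes NCAPD2 and SMC4, subunits of the condensin rings that compact chromosomes, TOP2A, the topoisomerase that untangles sister DNA, HMGB2, a DNA-bending protein, and MKI67, the Ki67 protein that coats mitotic chromosomes and whose antibody the study used to stain proliferating cells. The Log2FC of the 8 genes ran from -1.44 for TOP2A to -0.35 for ANP32E, a chaperone of histone H2A.Z. None of the 8 passed the test, and SMC4, TOP2A, CDCA2 and HMGB2 passed with the block. SMC4 was at 38.5, 29.5 and 19.9 TPM in CYST, 12.02, 12.7 and 13.7 in MAT and 13.5, 17.8 and 14.9 in MAT + COL. The MAT libraries were nearly alike, with 12.8 ± 0.854 TPM (SD, n = 3), while CYST spread more widely at 29.3 ± 9.31 TPM. Its Log2FC was -1.18 ± 0.23 and its adjusted p 0.0503, just outside the threshold, against 0.0235 with the block. SMC4 overlaps TRIM59 on the opposite strand over 11365 bases. HMGB2 was at 479.5, 479 and 379 TPM in CYST, 113, 242 and 199 in MAT and 101, 238 and 248 in MAT + COL. The lowest CYST library, at 379 TPM, was well above the highest library with EGF, at 248 TPM, and the Log2FC was -1.27 ± 0.28 (adjusted p = 0.0616, and 0.0194 with the block). TOP2A, shown after its values were seen, was at 127, 155 and 68.2 TPM in CYST, 14.9, 67.8 and 43.04 in MAT and 18.5, 70.3 and 63.4 in MAT + COL. MAT replicate 2 ended just under CYST replicate 3 and MAT + COL replicate 2 just above it. The Log2FC of TOP2A in MAT against CYST was -1.44 ± 0.49 (adjusted p = 0.153, and 0.0453 with the block).

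MKI67 (ENSBTAG00000002444, chr26:47507868-47537900, minus strand) was at 23.95, 11.9 and 9.61 TPM in CYST, 5.77, 4.37 and 10.4 in MAT and 1.04, 5.14 and 11.8 in MAT + COL. The groups overlapped, because MAT replicate 3 and MAT + COL replicate 3 were above CYST replicate 3, and MAT + COL replicate 1 was far below all other libraries. The Log2FC was -1.12 ± 0.42 in MAT against CYST (adjusted p = 0.181, and 0.0767 with the block) and -1.32 ± 0.78 in MAT + COL against CYST (adjusted p = 0.373, and 0.283 with the block). In same-numbered pairs, MAT differed from CYST by -2.02, -1.34 and -0.07 and MAT + COL by -4.59, -1.15 and 0.08 on the log2 CPM scale. MAT replicate 3 was thus above CYST replicate 3 in TPM and just below it in log2 CPM, which are scaled differently. The difference was near 0 for the libraries numbered 3 and wide for those numbered 1. In its staining for the protein of this gene, the study reported more positive cells with EGF on the intermediate days of culture. On the last day, when RNA was collected, it described the shares of positive cells with and without EGF as comparable. The RNA values given here come from that last day alone, and earlier days were not tested.

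**Figure D3:**
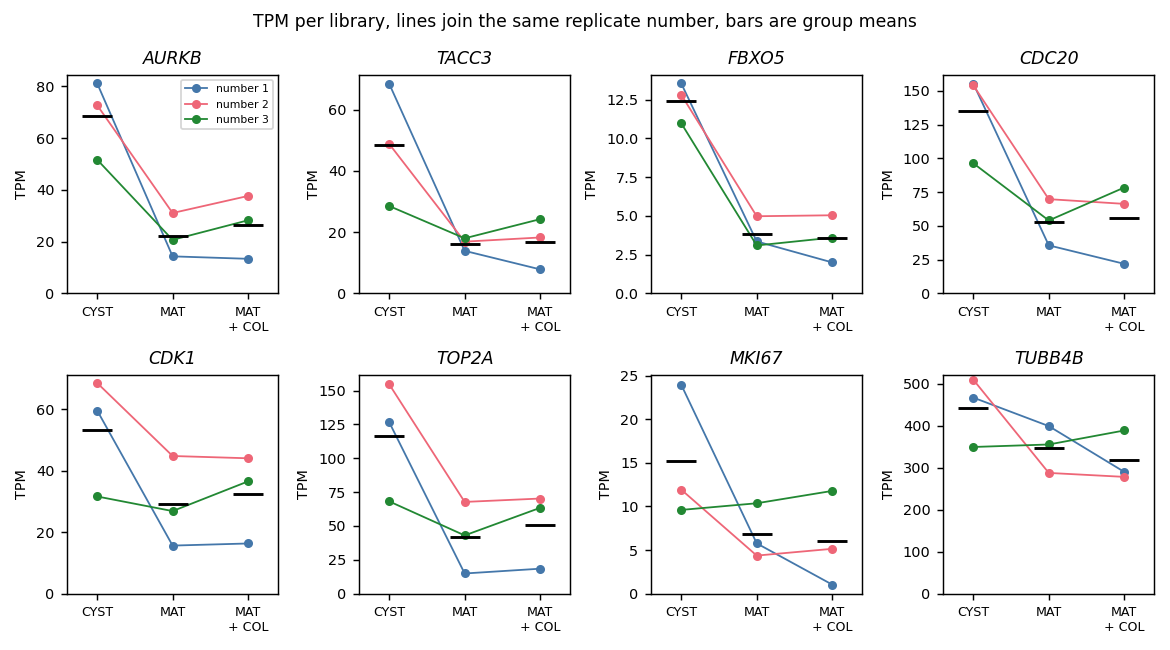
TPM of 8 of the genes in each library, with a line for each replicate number and black bars at the group means (n = 3). For AURKB, FBXO5 and CDC20 all 3 lines go down from CYST to MAT without overlap, whereas for TUBB4B and MKI67 the line numbered 3 does not go down.

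Of the cytokinesis genes, ANLN scaffolds the contractile ring and ECT2 activates RhoA at the cleavage site. ANLN, outside the rule for genes given by library, had a Log2FC of -0.86 ± 0.42 (adjusted p = 0.291) and was called by neither test. ECT2 was at 69.2, 78.6 and 41.3 TPM in CYST, 24.2, 45.04 and 20.3 in MAT and 27.2, 42.6 and 35.5 in MAT + COL. MAT replicate 2 and MAT + COL replicate 2 exceeded CYST replicate 3, but within each number the order was kept, with differences of -1.48, -0.70 and -1.20. The Log2FC of ECT2 was -1.06 ± 0.31 (adjusted p = 0.111) and passed with the block at -1.12 ± 0.20 (adjusted p = 0.0183). LBR, the lamin B receptor of the inner nuclear membrane, was at 85.6, 90.02 and 60.2 TPM in CYST, 31.1, 52.9 and 41.2 in MAT and 39.3, 55.1 and 59.8 in MAT + COL. Its lowest CYST and highest MAT + COL libraries, both numbered 3, nearly met, and its Log2FC in MAT against CYST was -0.90 ± 0.23 (adjusted p = 0.0816, and 0.0342 with the block). The remaining genes of the nuclear envelope group, TMPO and RANGAP1, the activator of the Ran GTPase, were not called, with Log2FC of -0.64 ± 0.33 and -0.38 ± 0.33.

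The same-numbered pairs showed how uneven the size of the difference was. Between MAT and CYST, 52, 51 and 51 of the 52 genes were lower in MAT in pairs 1, 2 and 3 in log2 CPM, and 50 were lower in all 3, against 26.3% of all genes tested, the exceptions being HJURP in pair 3 and G2E3 in pair 2. In TPM, which is scaled differently, 52, 52 and 45 were lower and 45 were lower in all 3, against 24.7% of all genes, and CENPA, HJURP, CKAP5, TUBB4B, MKI67, CBX5 and TMPO were higher in MAT in pair 3. The median difference was -2.04 in pair 1, -0.74 in pair 2 and -0.72 in pair 3 on the log2 CPM scale, against -0.00461, -0.00795 and -0.0182 over all genes. Without the libraries numbered 1, the median Log2FC of the 52 genes in the blocked fit was -0.67.

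**Figure D4:**
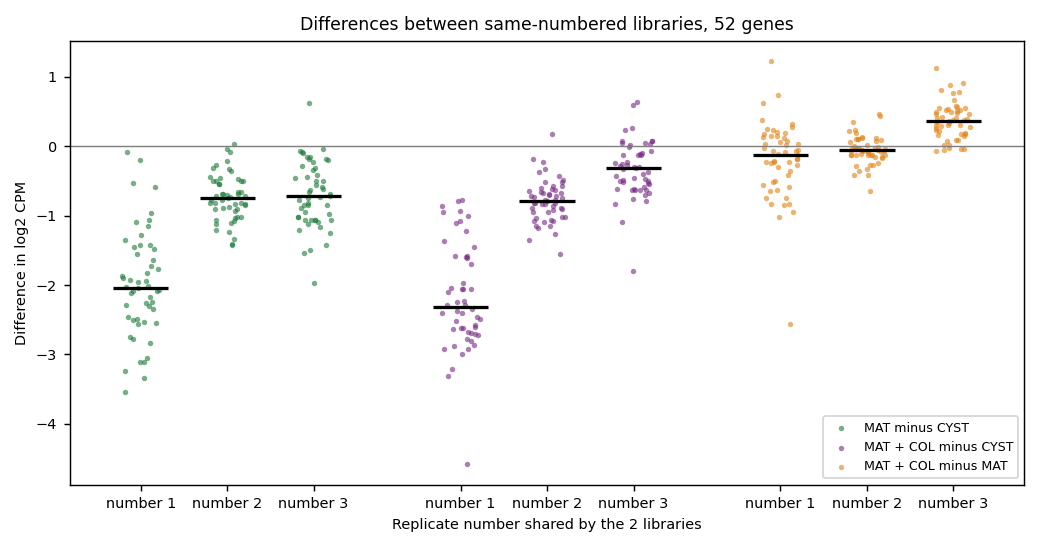
Difference in log2 CPM between libraries of the same replicate number for each of the 52 genes (points), with the median of each pair as a black bar. Medians in MAT minus CYST are -2.04, -0.74 and -0.72, in MAT + COL minus CYST -2.32, -0.79 and -0.32, and in MAT + COL minus MAT -0.12, -0.06 and 0.37.

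MAT + COL was compared with the same MAT libraries to see whether type I collagen shifted these genes under EGF. None of the 52 genes passed the test, nor did any of the 12470 genes tested (0% called), and none of the 52 had an unadjusted p under 0.05 by edgeR without or with the block, against 0.184% of all genes lower and 0.225% higher without it and 2.8% lower and 2.16% higher with it. DESeq2 called 0 of the 52 as well. The Log2FC was positive for 35 genes, against 49.9% of all genes, and negative for 17, against 50.1%, with a median of 0.09 and a range of -0.23 to 0.45, and for none of the 52 did the 2 groups fail to overlap, against 0.818% of all genes lower and 2.75% higher. By the smallest unadjusted p, the genes nearest to a difference were SMC4 at 0.19 ± 0.21, LBR at 0.24 ± 0.28 and TUBB4B at -0.19 ± 0.23, each with an adjusted p of 1.00. The standard errors of the 52 Log2FC ran from 0.20 for CKAP5 to 0.81 for HJURP. A call needs a Log2FC of several standard errors, so that differences larger than these could also have gone uncalled. In MAT against CYST, for example, TTK at -1.70 ± 0.44 was not called without the block. In log2 CPM, 32 and 35 of the 52 genes were lower with collagen I in pairs 1 and 2, with medians of -0.12 and -0.06, while in pair 3 only 5 were lower, with a median of 0.37. In TPM these numbers were 26, 28 and 4. The median over the genes turned with single libraries, from -0.21 without MAT replicate 1 to 0.41 without MAT replicate 2 and 0.40 without MAT + COL replicate 1. NDC80, AURKA, UBE2C, G2E3, SMC4, TOP2A and LBR were higher with collagen I in all 3 pairs in log2 CPM, which is 7 of 52 against 13.6% of all genes, and HMMR and ANP32E were lower in all 3, against 12.8%. In TPM, 11 were higher in all 3 pairs and 2 lower, against 20.4% and 7.95%.

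MAT + COL against CYST shares the CYST libraries with MAT against CYST, and its values are not independent of those given for MAT. Again all 52 genes had a negative Log2FC, with a median of -0.91 and a range from -1.85 for FBXO5 to -0.23 for G2E3, against a median of 0.04 and 47% negative over 12509 genes tested. None of the 52 was called by edgeR, where 0.815% of all genes were called lower, and 27 had an unadjusted p under 0.05, against 11.3%. With the block FBXO5 was called, against 2.58%, while DESeq2 without the block called 11, against 6.33%. For 25 genes every MAT + COL library was below every CYST library, against 10.3%. FBXO5 had a Log2FC of -1.85 ± 0.40 (adjusted p = 0.0636), and -1.95 ± 0.40 with the block (adjusted p = 0.0469). AURKB had -1.40 ± 0.38 (adjusted p = 0.0947) and TACC3 -1.53 ± 0.46 (adjusted p = 0.118), neither past the threshold. In log2 CPM, all 52 genes were lower in pair 1, 51 in pair 2 and 41 in pair 3, with medians of -2.32, -0.79 and -0.32, and 40 were lower in all 3 against 25.2% of all genes. In TPM the numbers were 52, 51 and 34, with 33 in all 3 against 19.9%. Of the kinetochore genes, only NUF2 and TTK were lower in pair 3, whereas all 3 passenger complex genes and CCNB2, CDC25C, CKS1B and CKS2 were, in log2 CPM and in TPM alike. CDK1 was level in pair 3 in log2 CPM and higher in MAT + COL in TPM. Without both libraries numbered 3 the blocked test called 45 of the 52 and 9.79% of all genes lower. It called 0 of the 52 without both libraries numbered 1 and without both numbered 2, against 0.372% and 0.378% of all genes. Without MAT + COL replicate 1 the median Log2FC was -0.60.

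Single genes departed from the level of the rest of the module. For each gene, the log2 CPM minus the mean of the other 51 was taken in each library, and its standard deviation over the 9 libraries had a median of 0.323 among the genes. MKI67 had the highest, 0.889, followed by RANGAP1 at 0.754, TUBB4B at 0.671 and HJURP at 0.639. CDC25C, at 0.125, and NCAPD2, at 0.149, had the lowest. Relative to the other genes and centred on its own mean, MKI67 was at 0.86, -0.25 and 0.20 in CYST replicates 1 to 3, at 0.82, -0.87 and 0.84 in MAT, and at -1.60, -0.62 and 0.62 in MAT + COL. The level per length of TOP2A was 2.58 to 17.7 times that of MKI67 across libraries, and the ratio had no order by group, with 5.29, 12.97 and 7.10 in CYST and 2.58, 15.5 and 4.15 in MAT. The ratio of the sister genes CKS2 and CKS1B stayed between 4.12 and 9.62. These are descriptions over 9 libraries that share the same counts and depth, and no test was made of them.

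**Figure D5:**
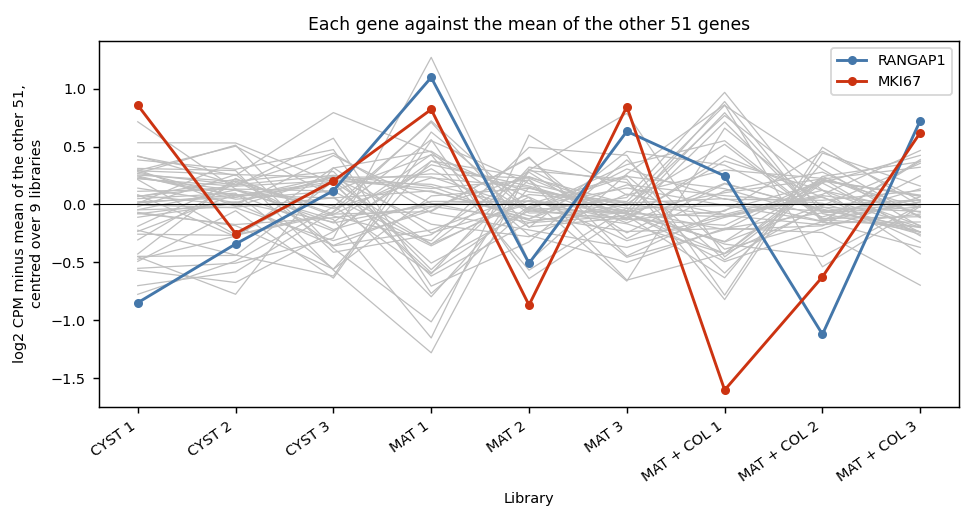
Log2 CPM of each gene minus the mean of the other 51 genes, centred over the 9 libraries (grey lines, one for each gene). MKI67 (red) and RANGAP1 (blue) have the widest spread, with standard deviations of 0.889 and 0.754, and MKI67 is at -1.60 in MAT + COL replicate 1.

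A further list of 120 mitotic genes outside the module, written from their known roles, was examined in the same way, and 118 were found and 117 tested. In MAT against CYST, 106 had a negative and 11 a positive Log2FC, with a median of -0.85. The test called 5 lower and 0 higher, and 38 lower with the block, where 0.944% and 5.67% of all genes tested were called lower. The 5 were MIS18A, which helps to load CENPA, with -2.10 ± 0.33 (adjusted p = 0.0332), CENPN and SKA1 of the kinetochore with -1.46 ± 0.27 and -2.10 ± 0.40, the condensin subunit NCAPG with -1.74 ± 0.33, and the mitotic kinase PLK1 with -1.68 ± 0.32 (adjusted p = 0.0476). SKA1 was named after its call was known. Cyclin B1, encoded by CCNB1, was at 263, 287 and 175 TPM in CYST and 45.6, 125 and 87.02 in MAT without overlap, and its Log2FC of -1.47 ± 0.34 passed only with the block (adjusted p = 0.0678, then 0.0194). CCNA2, cyclin A2, gave -1.49 ± 0.49 (adjusted p = 0.138, then 0.0444). For the transcription factors of this program, MYBL2 (B-MYB) had -0.92 ± 0.50 (adjusted p = 0.347), and FOXM1, at no more than 1.61 TPM in any library, had -0.23 ± 0.82 (adjusted p = 0.906), and the sign for FOXM1 turned when MAT replicate 3 was left out.

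By role, the 6 remaining condensin subunits were all lower with a median Log2FC of -1.32, 1 called and 5 with the block. The 35 further kinetochore and checkpoint genes had a median of -1.17 with 3 called and 15 with the block. Over all genes tested, 0.944% were called lower, and 5.67% with the block. The 13 genes of the anaphase-promoting complex and related ligases had a median of -0.20 and the 10 cohesin genes and inhibitors of separase one of -0.25, with 0 called in each, and 1 and 2 with the block. Those medians lie nearer to that of all genes, 0.01, than the medians of the condensin and kinetochore genes do, and the difference between roles was not tested. In MAT + COL against MAT, 0 of the 117 genes were called, with a median of 0.06. In MAT + COL against CYST, 104 of the 117 were negative, with a median of -0.72. The test called 2 lower, and 7 with the block, against 0.815% and 2.58% of all genes. A list of 41 S phase genes, whose products act in DNA replication, had 41 negative Log2FC in MAT against CYST with a median of -1.26. Of these, 9 were called lower, and 28 with the block, against 0.944% and 5.67% of all genes.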

How the data were processed

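Total RNA of 9 libraries (SMART-Seq HT PLUS kit) was read on an Illumina sequencer, and, after trimming, the authors mapped the reads to ARS-UCD2.0 with the default settings of CLC Genomics Workbench 25.0.1. They deposited raw counts per gene, and a second deposited table holds TPM. The annotation release and the strand setting are not given in the sources used here. Groups and replicate numbers were taken from the labels.

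Counts were tested in R 4.3.3 with edgeR 4.0.16 (filterByExpr with a minimum count of 10, TMM, glmQLFit and glmQLFTest), with 6 libraries in each fit, and p-values were adjusted by Benjamini-Hochberg over all genes tested. Standard errors were computed as the absolute Log2FC divided by the square root of the F statistic. Log2 CPM used a prior count of 2. The tests were tested on simulated data. DESeq2 1.42.0, limma 3.58.1 on log2(TPM + 1) and log2(TPM + 0.1), other size factors, no filter, all 9 libraries in one fit, the replicate block and leaving out each library were alternatives. Combinations of the block with another choice were chosen after seeing the data. Figures were drawn with matplotlib 3.10.9.

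After subtracting group means, libraries of one number correlated over genes at 0.327, 0.434 and 0.395 for MAT and CYST, 0.473, 0.616 and 0.690 for MAT + COL and MAT, and 0.279, 0.351 and 0.348 for MAT + COL and CYST, so the numbers were treated as pairs. This pairing comes from the data. The labels give the numbers without a shared animal, and the study describes its MAT and MAT + COL libraries as clustering by individual.

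The 52 genes and the other lists were chosen with earlier results of these data known. Genes given by library were those of highest mean TPM and smallest p (MAT against CYST) in each functional group, MKI67, and the 3 smallest p for collagen I, and any others are named as chosen later. Of the other mitotic list, MAD2L1 and NFYB were not matched under these symbols and LIN52 did not pass the filter, and of 42 S phase genes UNG was not matched. Precision is limited by depth and by 3 libraries per group, and reads carry no molecular identifiers.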

Additional observations from a re-analysis of the deposited data

How the results depend on the processing

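Under each alternative the median Log2FC of the 52 genes stayed negative in both comparisons with CYST. In MAT against CYST, the 3 genes called lower became 22 with DESeq2 (5.11% of all genes), 5 without the filter on low counts (0.955%) and 24 with the replicate block (5.67%), and the 3 DEGs became 21, 5 and 21. The calls fell to 2 with library totals only (0.729%), with all 9 libraries in the fit (2.27%), and with limma on log2(TPM + 1) (0.822%) and log2(TPM + 0.1) (0.709%). Blocked fits called 40 (31 DEGs) with DESeq2, 19 (18) with library totals only, 25 (22) with all 9 libraries, and 0 (0), 24 (24) and 36 (33) without replicate number 1, 2 or 3, where 7.6%, 4.85%, 7.9%, 0.112%, 2.69% and 7.69% of all genes were called lower. Leaving out 1 library gave 0 to 2 calls and 0 to 2 DEGs. The 5 other mitotic genes called became 41 with DESeq2 (5.11% of all genes) and 38 with the replicate block (5.67%). They became 2 with library totals only (0.729%), 8 with all 9 libraries (2.27%), and 3 and 2 with limma on log2(TPM + 1) (0.822%) and log2(TPM + 0.1) (0.709%). In blocked fits they were 55 with DESeq2 (7.6%), 28 with library totals (4.85%) and 48 with all 9 libraries (7.9%). Without number 1, 2 or 3 they were 0, 29 and 53 in blocked fits (0.112%, 2.69% and 7.69%). Leaving out 1 library in fits without the block gave 0 to 5 (0.0321% to 0.947%). The Log2FC of FOXM1, -0.23, ran from -1.03 to 0.25 when 1 library was left out, the latter without MAT replicate 3, and it was 0.35 in the blocked fit without number 3. In MAT + COL against CYST, 0 calls became 11 with DESeq2, 2 with all 9 libraries, 1 with the replicate block, and in blocked fits 27 with DESeq2, 1 with library totals, 19 with all 9 libraries and 45 without number 3, against 6.33%, 2.37%, 2.58%, 7.64%, 2.12%, 7.48% and 9.79% of all genes. The count stayed at 0 with every other alternative, also in the blocked fits without number 1 (0.372%) and number 2 (0.378%). In MAT + COL against MAT, leaving out 1 library put the median Log2FC between -0.21 and 0.41, and no gene of the module was called under any alternative. The cause of these shifts was not tested. With 3 libraries per group and 6568968 reads in the shallowest, small differences were not detectable.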
